A study of Homo sapiens with 6 samples.

Results

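The protein genes of the cytosolic ribosome were followed in MCF10A cells with and without extra copies of the miR-203a hairpin. They were taken by symbol from the protein-coding rows of the deposited expression table, as names of the form RPL or RPS with a number, together with RPLP0, RPLP1, RPLP2, RPSA and FAU. Kinases and binding proteins with similar symbols and RPS27L were left out. The rule gave 82 genes of 18999 listed features, of which 32 encode proteins of the small subunit, 47 encode proteins of the large subunit and 3 encode the P stalk. MCF10A is an immortalised, non-tumorigenic human mammary epithelial line. Cells of both groups were transduced with a pMSCVpuro retrovirus and kept under puromycin, and both were grown with horse serum, epidermal growth factor, insulin, cholera toxin and hydrocortisone. The retrovirus of 1 group carried the pre-miR-203a insert and that of the other was empty, with 3 libraries in each group. The labels call the cells stably transduced and name no clone. The molecule field and the series text give total RNA, whereas the extract protocol describes pulling down AGO2 before mRNA was purified, and the labels do not settle which holds for these libraries.

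Each cytosolic ribosome needs a single copy of nearly every ribosomal protein, and the acidic stalk proteins are the known exception. Messenger RNAs of these genes are among the most abundant of a growing cell and begin with a run of C and T letters, the terminal oligopyrimidine or TOP tract, through which mTORC1 and the binding protein LARP1 control their translation and stability. A few ribosomal proteins have a paralog encoded by a separate gene that can take the same place in the ribosome. MiR-203a-3p pairs through its seed with matches in the 3′ untranslated region (UTR) of target mRNAs.

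The sequences that bear on the results are the seed of the microRNA, the matches to it in the 3′ UTRs of ribosomal protein genes, and the letters around their start sites. The mature microRNA lies at chr14:104117469-104117490 on the + strand of GRCh38.p14 (RefSeq), and capitals mark its seed, bases 2 to 8.
hsa-miR-203a-3p: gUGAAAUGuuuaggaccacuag

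Matches were searched on the sense strand of the longest 3′ UTR of each gene in GENCODE 29. A 7mer-m8 site is CATTTCA, an 8mer is that heptamer followed by A, a 7mer-A1 site is ATTTCAA and a 6mer is ATTTCA. Capitals mark the matched letters in RPL26L1, which fell, in RPL22L1, another paralog gene, which missed the threshold, and in RPS6, RPL12 and RPS19, highly expressed genes with an 8mer.
RPL26L1 7mer-m8: tgtctggaaCATTTCAtttcctgt
RPL22L1 6mer: aataaaaggaATTTCAtctgggaa
RPS6 8mer: tttttaagcCATTTCAAatttgttt
RPL12 8mer: aaaggaaaaCATTTCAAtaaaggat
RPS19 8mer: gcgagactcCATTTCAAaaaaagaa

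The RPL26L1 site starts at base 85 of a 3′ UTR of 230 nt, and the RPL22L1 site at base 1486 of 1505 nt. RPL39L, with a 3′ UTR of 197 nt, held no match of any of these forms. At least 1 site of 7 or 8 letters was present in 17 of the 82 genes (20.7%), against 32.0% of 13417 listed protein-coding genes with an annotated 3′ UTR. The median 3′ UTR was 485.5 nt in the ribosomal protein genes and 1324 nt in the listed protein-coding genes. An 8mer was found in 4 of them, RPL12, RPL37, RPS19 and RPS6.

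RefSeq start sites on GRCh38.p14 matched 66 of the 82 genes by symbol, and RPL39L was not among them. A run of at least 7 C and T letters that began with C within 5 bases of the start was found on the sense strand in 51 of the 66 (77.3%). The same search gave 11.6% of 10766 listed protein-coding genes. The stretches from 30 bases before to 30 bases after the start are shown for the classical genes RPS6 and RPL26 and for the paralogs RPL22L1 and RPL26L1, the last with 2 listed starts, and capitals mark the run where one was found. RPS6 lies at chr9:19380207-19380266 on the − strand, RPL26 at chr17:8383164-8383223 on the − strand, RPL22L1 at chr3:170870166-170870225 on the − strand, and the starts of RPL26L1 at chr5:172958699-172958758 and chr5:172958850-172958909 on the + strand.
RPS6: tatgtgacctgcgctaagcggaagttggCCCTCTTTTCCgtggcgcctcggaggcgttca
RPL26: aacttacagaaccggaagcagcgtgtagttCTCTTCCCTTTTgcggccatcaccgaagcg
RPL22L1: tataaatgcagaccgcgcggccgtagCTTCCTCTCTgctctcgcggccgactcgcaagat
RPL26L1 start 1: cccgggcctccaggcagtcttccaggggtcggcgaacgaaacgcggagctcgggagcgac
RPL26L1 start 2: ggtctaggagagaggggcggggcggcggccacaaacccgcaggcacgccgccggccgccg

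RPS6 and RPL26 thus showed the run, with 11 and 12 letters, and RPL22L1 showed one of 10 letters. Neither listed start of RPL26L1 had a run of 7 letters. Over the whole listed promoter windows of 300 bases, on both strands, the ETS-type letters CCGGAAG were in 34.8% of the 66 genes and 21.4% of all, AAGATGGC in 12.1% and 6.28%, and TATAAA in 9.09% and 9.31%. A match is a description of the letters and does not show that a factor binds.

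Reads over the listed features numbered 7632063 to 35084590 per library, with the fewest in pre-miR-203a library 3. MIR203A, the hairpin carried by the vector, had FPKM (reads scaled to the length of the feature and the depth of the library) of 4.63, 5.44 and 6.96 with the empty vector and of 19005, 3699 and 24945 with pre-miR-203a, which matches the labels of all 6 libraries. Of 11 mammary epithelial markers, 10 had FPKM of 1 or more in every library, and their summed FPKM ranged from 1412 to 1937. The summed FPKM of leukocyte markers was at most 0.121 and that of endothelial markers at most 0.339, and of the fibroblast markers DCN and COL1A1 passed 1 FPKM in some library. Both libraries numbered 3 stood apart from the other 4, and the values without them are given below beside the results they move most. The labels name no separate cultures, so p-values measure how far these libraries spread, possibly for technical reasons. In a cell population, fewer cells with an mRNA and less of that mRNA per cell cannot be told apart, and FPKM does not show a change in the RNA content of the cells.

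The RNA of the classical ribosomal protein genes did not differ detectably between cells with pre-miR-203a and cells with the empty vector, while 2 paralogs of the large subunit fell. RPL39L, a paralog of the exit tunnel protein RPL39 known chiefly from the testis, was 2.59-fold lower, and RPL26L1, a near copy of RPL26, was 2.21-fold lower by the ratio of mean FPKM. None of the 82 genes passed the test as higher and 2 passed as lower. Over all 11271 features tested, 6.59% were called higher and 9.18% lower (limma on log2(FPKM + 1), adjusted p under 0.05). All 82 genes entered the test, which took features that reached 1 FPKM in 3 or more libraries. With p under 0.05 before adjustment 0 were higher and 3 lower, where 17.1% of all tested features were lower at that level. Limma-voom on the reads recovered from the FPKM values also called 0 of the 82 higher.

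**Figure D1:**
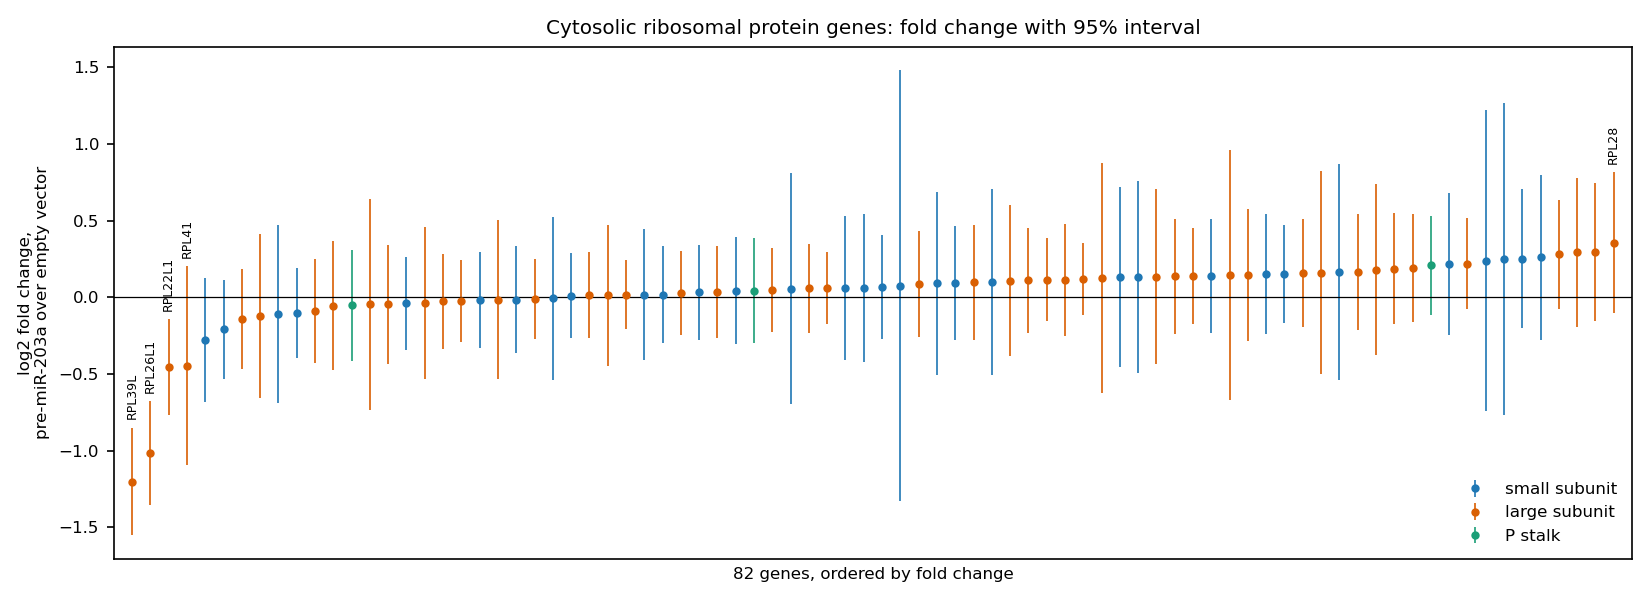
Log2 fold change of each of the 82 ribosomal protein genes, pre-miR-203a over empty vector on the log2(FPKM + 1) scale, with its 95% interval from limma, ordered by value and coloured by subunit, with 5 genes named (3 libraries per group). RPL39L and RPL26L1 lie at −1.20 and −1.02, and the other 80 lie between −0.45 and 0.36.

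RPL39L (ENSG00000163923.10, chr3:187120948-187180908, − strand, GRCh38) had FPKM of 9.73, 11.01 and 11.3 in empty-vector libraries 1, 2 and 3 and of 3.78, 5.16 and 3.42 in pre-miR-203a libraries 1, 2 and 3. Every pre-miR-203a library lay below every empty-vector library. Its log2 fold change was −1.20 ± 0.15 (SE, n = 3 per group), with a 95% interval of −1.55 to −0.85 and an adjusted p of 0.0042 (limma). The reads behind these values numbered 158, 399 and 335 against 65, 111 and 27. No 50-base window of its coding sequence occurred in another annotated gene, so that its reads could be set apart from those of RPL39 in that part of the mRNA.

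RPL26L1 (ENSG00000037241.7, chr5:172958729-172969771, + strand) had FPKM of 11.5, 11.5 and 14.96 with the empty vector and of 5.41, 6.60 and 5.18 with pre-miR-203a. The groups did not overlap here either. The log2 fold change was −1.02 ± 0.14 (SE, n = 3 per group), with a 95% interval of −1.36 to −0.68 and an adjusted p of 0.0061 (limma). Of the 50-base windows of its coding sequence, 48.6% were shared with the transcribed pseudogene RPL26P30 and 4.37% with RPL26P29, and the antisense gene AC008429.1 overlaps it. How reads with several matches were counted and whether strand was used are not given in the sources used here, so part of its value may belong to these neighbours.

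RPL22L1, a paralog of RPL22 that is known in mouse to be held down by it, was the next largest difference. Its FPKM was 112, 111 and 99.1 with the empty vector and 75.9, 68.9 and 90.8 with pre-miR-203a, and the groups did not overlap. The log2 fold change was −0.45 ± 0.13 (SE, n = 3 per group) with an adjusted p of 0.061, which missed the threshold (limma). Without pre-miR-203a library 3 it was −0.56 with an adjusted p of 0.017, and without both libraries numbered 3, an alternative added after seeing the data, −0.62 with an adjusted p of 0.0099 (limma). It also passed after quantile normalisation, with an adjusted p of 0.026 (limma).

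RPL7L1, named as a paralog of RPL7 and known to act in ribosome assembly, had FPKM of 13.0, 15.6 and 15.9 against 13.7, 15.7 and 15.4. The groups overlapped and the log2 fold change was 0.01 ± 0.12 (SE), with a 95% interval of −0.27 to 0.30. Among the 4 genes with such paralog names, RPL39L, RPL26L1, RPL22L1 and RPL7L1, 2 were thus called lower.

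The parent genes of the paralogs showed overlapping groups. RPL26, which lies close to the tunnel exit, had FPKM of 135, 128 and 192 against 163, 166 and 114, with a log2 fold change of −0.03 ± 0.21 (SE, adjusted p = 0.94, limma). Within each group library 3 lay on the opposite side from libraries 1 and 2, high with the empty vector and low with pre-miR-203a. Without both libraries numbered 3 the value turned to 0.32 with an adjusted p of 0.037 (limma). RPL22 had FPKM of 26.1, 24.2 and 19.9 against 23.8, 24.0 and 20.9, with a log2 fold change of −0.03 ± 0.13 (SE). RPL39 had FPKM of 2.09, 4.54 and 4.205 against 2.62, 3.09 and 7.14, with a log2 fold change of 0.15 ± 0.35 (SE), and library 3 with pre-miR-203a was the highest of the 6. Without that library it was −0.21, and without both libraries numbered 3 it was −0.10. The FPKM of RPL39L thus stood above that of RPL39 in every empty-vector library. Since every 50-base coding window of RPL39 also occurs in another gene, its own level may be understated, which was not tested.

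**Figure D2:**
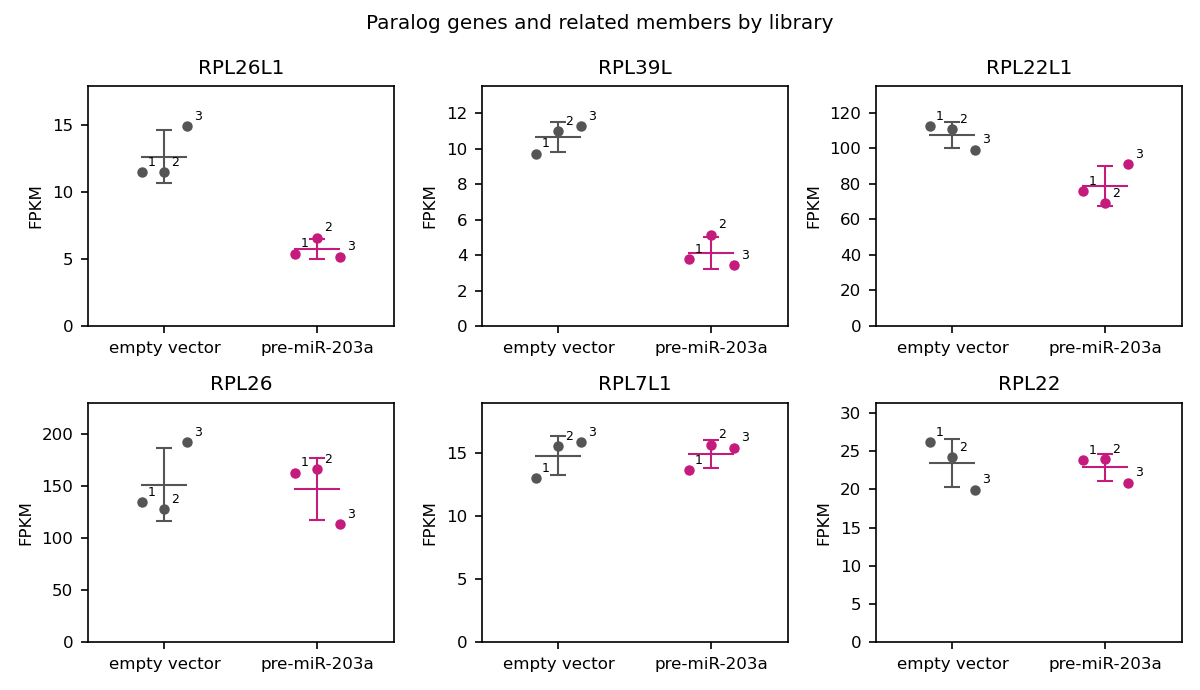
FPKM of RPL26L1, RPL39L, RPL22L1, RPL26, RPL7L1 and RPL22 in each library, with library numbers beside the points and the mean and SD of 3 libraries as bars; each axis starts at 0. The groups are separate for RPL26L1, RPL39L and RPL22L1 and overlap for RPL26, RPL7L1 and RPL22.

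Of the 82 genes, 58 had a positive and 24 a negative log2 fold change, and the median was 0.07, where that of all tested features was −0.01. The groups did not overlap for 5 of the 82, namely RPL26L1, RPL39L, RPL22L1, RPL3 and RPL23A, whereas 37.5% of all tested features had groups without overlap. The lowest adjusted p among the 80 genes not called was that of RPL22L1. On the log2(FPKM + 1) scale, the 95% interval lay within 1.5-fold in both directions for 52 of the 82 genes. It lay within 2-fold for 76, and its median half-width was 0.37. That scale understates changes of low genes, and 17 of the 82 had a mean FPKM under 10. For such genes these intervals do not bound the fold change in expression. Without the 4 paralog genes the median over the other 78 was 0.08, and 57 were positive and 21 negative.

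The side on which the median fell depended on pre-miR-203a library 3. Without that library it was −0.03, and without both libraries numbered 3 it was −0.09, where the medians of all tested features were −0.01 and −0.04. On TPM, in which length is divided out before the library total, it was −0.02, against −0.10 for all tested features. The median over the 82 genes, paralogs included, thus had no common direction across these settings. It lay below that of all tested features without these libraries and above it on TPM.

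**Figure D3:**
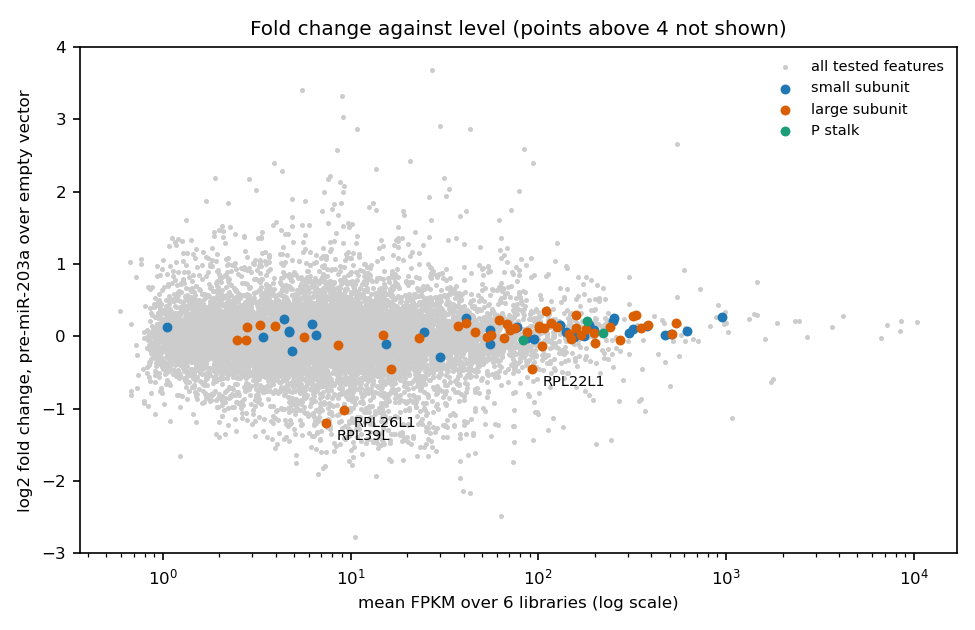
Log2 fold change, pre-miR-203a over empty vector, against mean FPKM over 6 libraries on a log axis, for all 11271 tested features in grey and the 82 ribosomal protein genes in colour by subunit. Apart from RPL39L and RPL26L1, the ribosomal protein genes lie between −0.45 (RPL22L1 and RPL41) and 0.36 (RPL28).

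Small-subunit genes ranged from −0.28 to 0.26 in log2 fold change with a median of 0.07, and 24 of the 32 were positive. None of them was called in either direction, and none had an unadjusted p under 0.05 (limma). RPS6, the substrate of the S6 kinases, had FPKM of 565, 584 and 674 against 611, 594 and 708 and a log2 fold change of 0.07 ± 0.14 (SE). RPS12 had 517, 507 and 478 against 497, 475 and 570 FPKM, with overlapping groups and a log2 fold change of 0.03 ± 0.13 (SE).

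RPS4X, the X-linked form of the eS4 protein, had FPKM of 349, 360 and 365 against 370, 342 and 487. The groups overlapped and its log2 fold change was 0.14 ± 0.16 (SE). FAU encodes the small-subunit protein eS30 fused to a ubiquitin-like protein, and had FPKM of 118, 127 and 121 against 122, 117 and 175, with a log2 fold change of 0.15 ± 0.17 (SE). Without pre-miR-203a library 3 the values were −0.01 for RPS4X and −0.03 for FAU. RPS27A encodes eS31 fused to ubiquitin and had FPKM of 36.8, 33.8 and 27.8 against 31.0, 28.8 and 21.2. Its log2 fold change of −0.28 ± 0.17 (SE) was the lowest of the small subunit, with overlapping groups and an adjusted p of 0.33 (limma), and it was −0.12 without pre-miR-203a library 3.

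Large-subunit genes had a median log2 fold change of 0.09, and 32 of the 47 were positive. RPL28 had the highest value of the 82, 0.36 ± 0.20 (SE, adjusted p = 0.27, limma), from FPKM of 90.6, 102 and 93.2 against 107, 102 and 168. RPL7A followed the same pattern, with 138, 150 and 133 against 152, 144 and 233 FPKM and a log2 fold change of 0.30 ± 0.19 (SE). In both genes pre-miR-203a library 3 was the highest and libraries 1 and 2 lay at the level of the empty-vector libraries or just above. Without that library RPL28 had a log2 fold change of 0.13 and RPL7A one of 0.08, and without both libraries numbered 3 the values were 0.12 and 0.04. RPL3, which reaches towards the catalytic centre, had FPKM of 265, 291 and 308 against 323, 316 and 418, with a log2 fold change of 0.28 ± 0.15 (SE, adjusted p = 0.27, limma). RPL23A had 55.8, 56.1 and 58.96 against 61.2, 61.6 and 78.1 FPKM and a log2 fold change of 0.22 ± 0.13 (SE). The groups did not overlap in RPL3 and RPL23A, and neither passed the test. In libraries 1 and 2 alone the differences were 0.20 for RPL3 and 0.13 for RPL23A.

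RPL41, the shortest ribosomal protein, had FPKM of 22.1, 25.3 and 11.1 against 14.5, 13.7 and 11.8. Empty-vector library 3 lay below all pre-miR-203a libraries, with a log2 fold change of −0.45 ± 0.28 (SE, adjusted p = 0.34, limma). Without that library it was −0.79 with an adjusted p of 0.023, and without both libraries numbered 3 it was −0.71 with an adjusted p of 0.0095 (limma). RPL8 had FPKM of 471, 502 and 535 against 546, 512 and 671 and a log2 fold change of 0.19 ± 0.15 (SE), which was 0.07 without pre-miR-203a library 3.

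RPL5 and RPL11, which bind 5S rRNA and can hold MDM2 when ribosome assembly is disturbed, showed fold changes close to 0. RPL5 had FPKM of 139, 136 and 156 against 153, 153 and 134, and RPL11 had 514, 488 and 522 against 521, 480 and 562. Their log2 fold changes were 0.03 ± 0.12 and 0.03 ± 0.13 (SE), with 95% intervals of −0.25 to 0.30 and −0.26 to 0.33. For both genes the groups overlapped.

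The stalk proteins recruit elongation factors to the large subunit. RPLP0, the base of the stalk, had FPKM of 165, 179 and 163 against 185, 174 and 231 and a log2 fold change of 0.21 ± 0.14 (SE). RPLP1 had 83.5, 95.2 and 73.5 against 76.4, 71.3 and 96.1 FPKM, and RPLP2 had 226, 235 and 189 against 219, 197 and 254. Their log2 fold changes were −0.05 ± 0.16 and 0.04 ± 0.15 (SE), and the groups overlapped in all 3 stalk genes. Without pre-miR-203a library 3 the log2 fold changes were 0.09 for RPLP0, −0.18 for RPLP1 and −0.05 for RPLP2.

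In the authors' deposited table, 3 of the 82 genes had an adjusted p under 0.05, where 18.3% of the features with an adjusted p in that table were under it. In the authors' deposited table RPL39L had a log2 fold change of −1.33 and RPL26L1 one of −1.12. RPL22L1, which missed the threshold in limma, had −0.43 with an adjusted p of 0.046 in the authors' deposited table.

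Fold changes of ribosomal protein genes with and without a seed match lay side by side. The 17 genes with a site of 7 or 8 letters had a median log2 fold change of 0.06 and the 65 without one had 0.08, with 1 gene called lower in each class. Of the 4 genes with an 8mer, RPL12 had FPKM of 118, 120 and 118 against 115, 116 and 166 and a log2 fold change of 0.14 ± 0.16 (SE). RPL37 had a log2 fold change of 0.06 ± 0.12, RPS19 one of 0.10 ± 0.26 and RPS6 one of 0.07 ± 0.14 (SE). None of these 4 passed the test. In libraries 1 and 2 alone the differences were −0.04 for RPL12, 0.16 for RPL37, −0.30 for RPS19 and 0.07 for RPS6. Among other tested protein-coding genes the median was −0.10 for 3299 with such a site and 0.01 for 6796 without one. By the start-site letters, 0 of 51 genes with the C and T run were called lower, 1 of 15 without it (RPL26L1) and 1 of 16 with no listed start (RPL39L), and the median log2 fold changes were 0.06, 0.11 and 0.08.

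The level of the genes spanned a wide range although the proteins are needed in equal number. The lowest mean FPKM over the 6 libraries was 1.05, for RPS10, and the median was 94.2, where that of all tested features was 7.56. In 40 genes it was above 100 and in 17 under 10. The next lowest after RPS10 were RPL7 at 2.48, RPL21 at 2.78 and RPL36A at 2.81 FPKM. These are classical genes of the ribosome, whose processed pseudogenes are numerous in the human genome.

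The level went with how much of the coding sequence is found in other genes. Among 16 genes with under 10% of their 50-base coding windows in a gene elsewhere, the median FPKM was 210. It was 130 in 29 genes with 10% to under 50%, 55.1 in 27 genes with 50% to under 90%, and 4.31 in 10 genes with 90% or more. Of the last 10 genes, RPL41 at 16.4 FPKM was the exception, and the other 9, among them RPL7, RPL21, RPL39, RPS3A and RPS27, were under 10. The correlation of log2 level with the share of windows was −0.654 (Pearson) and −0.646 (Spearman) over the 82 genes, which share the same 6 libraries, and is a description without a test. Reads on the 193 listed ribosomal protein pseudogenes amounted to 0.401 to 0.505 per 100 reads on the ribosomal protein genes. Whether shared sequence lowered these levels was not tested, so they cannot be taken as comparable amounts of mRNA. Each gene was compared with itself between groups, which does not remove differences between libraries. As described below, library 3 of each group differed from the rest of its group along with the share of windows. The Pearson correlations over the 82 genes were −0.421 with the empty vector and −0.296 with pre-miR-203a.

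**Figure D4:**
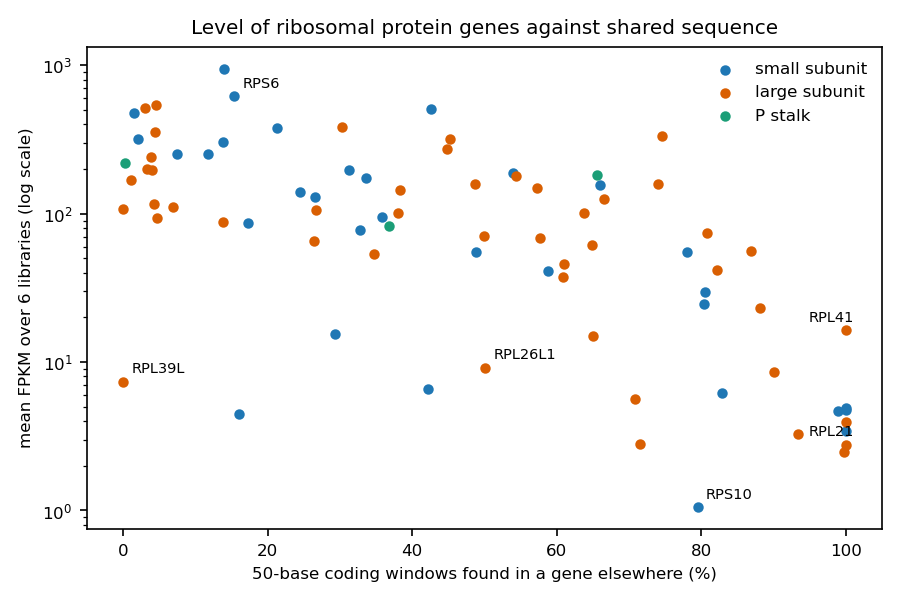
Mean FPKM over 6 libraries on a log axis against the percentage of 50-base coding windows that also occur in a gene elsewhere, for the 82 ribosomal protein genes by subunit. The 10 genes at 90% or more lie between 2.48 and 16.4 FPKM, and RPL39L and RPL26L1 lie low at 0% and 50.1%.

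The lowest genes rest on few reads. RPS10, a protein near the mRNA entry of the small subunit, had 43, 117 and 20 reads with the empty vector and 35, 80 and 14 with pre-miR-203a. Its FPKM was 1.19, 1.45 and 0.302 against 0.913, 1.67 and 0.797, and its log2 fold change 0.13 ± 0.27 (SE). Empty-vector library 3 was the lowest of the 6. The same library was the lowest for RPL7, with 3.13, 3.43 and 1.19 against 2.31, 3.15 and 1.65 FPKM, and for RPL36A, with 3.51, 3.26 and 1.25 against 2.82, 4.21 and 1.82. RPL21 had 2.94, 3.55 and 2.07 against 2.72, 2.99 and 2.39 FPKM. Their log2 fold changes were −0.05 ± 0.29 for RPL7, 0.13 ± 0.32 for RPL36A and −0.04 ± 0.17 for RPL21 (SE), and the groups overlapped in these genes. Without empty-vector library 3 the log2 fold changes were −0.15 for RPS10, −0.37 for RPL7, −0.20 for RPL36A and −0.20 for RPL21.

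The ribosomal protein genes together took 3.27%, 3.37% and 3.24% of the reads in empty-vector libraries 1, 2 and 3 and 3.33%, 3.13% and 4.33% in pre-miR-203a libraries 1, 2 and 3. The group means were 3.29% ± 0.067 and 3.60% ± 0.64 (SD, n = 3), and the difference of 0.304 percentage points lay within the spread of the pre-miR-203a group. The other 5 libraries lay close together, and pre-miR-203a library 3, the shallowest, stood above them. Leaving out the mitochondrially encoded genes, the means were 3.49% ± 0.069 and 3.83% ± 0.64 (SD, n = 3).

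Pre-miR-203a library 3 had the highest of the 6 values for 54 of the 82 genes, and empty-vector library 3 the lowest for 28. Pre-miR-203a library 3 exceeded the mean of libraries 1 and 2 by a median of 0.34 in log2(FPKM + 1) over the 82 genes, with 62 of them positive, where the median over all tested features was −0.03. This difference went with the GC content of the longest transcript, with a Pearson correlation of 0.458 over the 82 genes and of 0.461 over 11042 other tested features. RPS15, the gene with the highest GC content of the set at 66.2%, had FPKM of 27.4, 27.7 and 89.6 in pre-miR-203a libraries 1, 2 and 3. Its log2 fold change was 0.25 ± 0.43 (SE), and the difference in libraries 1 and 2 alone was −0.40.

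Empty-vector library 3 lay below the mean of libraries 1 and 2 by a median of −0.11 over the 82 genes and of −0.75 over the 10 genes with 90% or more shared windows. The Pearson correlation of this difference with the share of windows was −0.421 over the 82 genes, again a description. RPS3A showed the largest drop of the 82, by −1.88. For pre-miR-203a library 3 the correlation with the share of windows was −0.296 over the 82 genes. Its difference had a median of −0.11 over the 10 genes with 90% or more shared windows. With GC content the empty-vector difference had a Pearson correlation of 0.030 over the 82 genes and of −0.287 over 11042 other tested features. Pre-miR-203a library 3 was the shallowest with 7632063 reads, whereas empty-vector library 3 had 28721937. The part of GC content, shared sequence and depth in the fold changes was not tested.

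**Figure D5:**
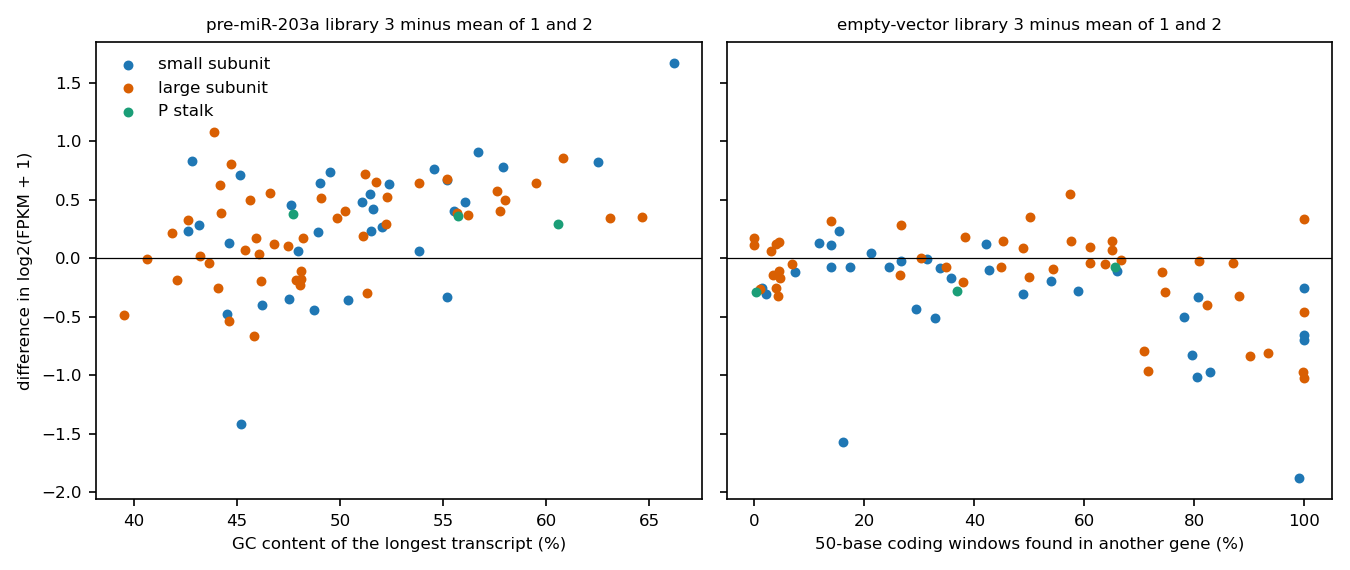
Difference of library 3 from the mean of libraries 1 and 2 in log2(FPKM + 1) for the 82 ribosomal protein genes by subunit, on the left in the pre-miR-203a group against GC content and on the right in the empty-vector group against the percentage of shared 50-base coding windows. The left differences have a median of 0.34 and correlate with GC content at 0.458, and the right ones have a median of −0.11 and correlate with shared windows at −0.421.

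Set beside each other by replicate number, pre-miR-203a minus empty vector, the 82 genes had a median log2 difference of −0.04 in libraries 1, −0.13 in libraries 2 and 0.41 in libraries 3. Positive differences numbered 34, 18 and 71. RPL39L had −1.17, −0.96 and −1.47, RPL26L1 had −0.97, −0.72 and −1.37, and RPL22L1 had −0.56, −0.68 and −0.13. Since the groups did not overlap in these 3 genes, any pairing of the libraries gives negative differences for them. RPL7L1, the other gene with a paralog name, had 0.04 in libraries 1 and 2 together and −0.04 in libraries 3. The median over the 82 genes changed side in libraries 3.

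Without both libraries numbered 3, 1 gene of the 82 was called higher and 9 lower (limma, adjusted p under 0.05, 2 libraries per group), where 11% of all tested features were called higher and 17.3% lower. RPL26 was the higher gene. The lower genes were RPL39L at −1.07, RPL26L1 at −0.84, RPL41 at −0.71, RPL22L1 at −0.62, RPS29 at −0.53, RPSA at −0.53, RPL17 at −0.39, RPS7 at −0.37 and RPS2 at −0.35 in log2 fold change. RPSA and RPS2 sit near the mRNA exit and entry of the small subunit, and RPL17 near the tunnel exit. Of these genes, RPL39L and RPL26L1 were also called with all 6 libraries.

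Genes that act beside the ribosomal proteins were read from 6 lists and from the mitochondrial ribosomal proteins. Ribosomal or ribosome-bound proteins outside the name rule, among them RPL36AL, RPS27L and RACK1, gave 0 calls of 4 in limma, with 0 at an unadjusted p under 0.05 and a median log2 fold change of 0.20. RPS27L had 12.2, 11.3 and 10.6 against 13.98, 12.1 and 15.96 FPKM (0.27 ± 0.13, SE), and RACK1 had a log2 fold change of 0.17 ± 0.17 (SE). Other mRNAs with a TOP tract gave 0 calls of 19 tested in limma and a median of 0.00, with 1 higher and 2 lower before adjustment (p under 0.05). EIF4B, a helicase cofactor of initiation, had 27.2, 30.1 and 32.1 against 37.2, 38.4 and 39.8 FPKM, with a log2 fold change of 0.36 ± 0.11 (SE, adjusted p = 0.060, limma). It passed after quantile normalisation, in limma-voom, without both libraries numbered 3 and after GC correction, with adjusted p of 0.039, 0.049987, 0.028 and 0.022 (limma). NPM1, a nucleolar chaperone, had 157, 160 and 179 against 115, 140 and 98.6 FPKM (−0.50 ± 0.15, SE, adjusted p = 0.064, limma), and without pre-miR-203a library 2 its adjusted p was 0.033 (limma).

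Ribosome assembly factors gave 0 higher and 6 lower calls of 49, a share of 12.2% beside 9.18% lower among all tested features, and their median was −0.19. Before adjustment 17 of the 49 had a p under 0.05 and were lower (limma), and 0 were higher. The share lower at that level over all tested features was 17.1%. A negative log2 fold change was found in 37 of the 49, against 5830 of 11271 tested features. NCL, nucleolin, had FPKM of 272, 306 and 310 against 93.5, 155 and 80.5, and fell by 1.48 ± 0.24 on the log2 scale (SE, adjusted p = 0.0081, limma). NOLC1, a chaperone of small nucleolar RNA proteins, had 122, 132 and 119 against 57.2, 75.6 and 66.1 FPKM and fell by 0.91 ± 0.13 on the log2 scale (SE, adjusted p = 0.0064, limma). In both genes every pre-miR-203a library lay below every empty-vector library. The others were BRIX1 at −0.72, WDR43 at −0.66, PNO1 at −0.46 and RPF2 at −0.43, which act in large- or small-subunit assembly. NCL and NOLC1 hold a seed match of 7 or 8 letters in the 3′ UTR, as do 32.0% of listed protein-coding genes with an annotated 3′ UTR. BRIX1, WDR43 and RPF2 hold none, and PNO1 holds a 6mer only. In the lists below such a match is in MRPL1, called lower, and in EIF4EBP2 and MXD4, called higher. It is absent from MRPL19, MRPL39 and RPS6KB2. Whether these matches had a part in the fold changes was not tested. BRIX1 lost its call when any 1 of the empty-vector libraries (adjusted p of 0.084, 0.099 and 0.088) or pre-miR-203a library 1 (0.096) was left out, and with no filter on FPKM (0.057), by limma. The call of RPF2 was lost without any 1 of empty-vector libraries 1, 2 and 3 or pre-miR-203a libraries 1 and 2, with adjusted p of 0.060 to 0.119, and in the fit with the replicate block, at 0.066 (limma). It was also lost with no filter (0.054), median centring (0.053), quantile normalisation (0.059), limma-voom (0.051) and GC correction (0.077), each an adjusted p.

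Among 18 regulators of TOP mRNAs around mTORC1 and LARP1, 2 were called higher (11.1%) and 0 lower, where 6.59% of all tested features were called higher, and the median was −0.01. EIF4EBP2, which holds back cap-dependent initiation, had FPKM of 20.2, 18.4 and 18.8 against 30.3, 28.9 and 26.9 and a log2 fold change of 0.56 ± 0.10 (SE, adjusted p = 0.012, limma). RPS6KB2, an S6 kinase, had 11.5, 12.6 and 10.5 against 15.9, 15.1 and 19.0 FPKM and a log2 fold change of 0.49 ± 0.13 (SE, adjusted p = 0.039, limma). The groups did not overlap in either gene. EIF4EBP2 missed the threshold on TPM (0.077) and when empty-vector library 1 (0.051) or 2 (0.060) or library 1 with pre-miR-203a (0.055) was left out, each an adjusted p from limma. RPS6KB2 missed it on TPM (0.150), with no filter (0.065), with the replicate block (0.076), and without any 1 of empty-vector libraries 1, 2 and 3 or pre-miR-203a libraries 1 and 2 (adjusted p of 0.053 to 0.137, limma).

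Of 9 tested genes of the MYC network, 1 was called higher (11.1%) and 0 lower, beside the same 6.59% over all tested features. MXD4, a repressor that competes with MYC for MAX, had FPKM of 5.48, 6.39 and 4.57 against 9.62, 9.34 and 9.76 and a log2 fold change of 0.72 ± 0.13 (SE, adjusted p = 0.012, limma). It missed the threshold without empty-vector library 1 and on TPM, with adjusted p of 0.055 and 0.060 (limma). The 4 tested genes of the 5S RNP and p53 pathway gave 0 calls in limma and 0 at an unadjusted p under 0.05. CDKN1A, the cell cycle inhibitor p21, had FPKM of 104, 78.9 and 110 against 137, 110 and 244.8 (0.67 ± 0.29, SE), and MDM2 had 12.9, 12.9 and 15.3 against 15.5, 16.6 and 12.4 (0.10 ± 0.14, SE). The groups overlapped in both. Without pre-miR-203a library 3 the log2 fold change of CDKN1A was 0.34 and that of MDM2 was 0.21.

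The mitochondrial ribosomal proteins, which build the separate ribosome of that organelle, gave 0 higher and 3 lower calls of 73 tested (4.11%), where 9.18% of all tested features were called lower. Before adjustment 15 had a p under 0.05 and were lower, where the share over all tested features was 17.1%. Of the 73 genes, 67 had a negative log2 fold change and the median was −0.20, against 5830 negative of 11271 tested features and a median of −0.01. By replicate number the median difference was −0.31, −0.33 and 0.01, so that libraries 3 stood apart here too. MRPL39 had FPKM of 49.8, 49.4 and 51.2 against 30.4, 34.2 and 30.4 and fell by 0.65 ± 0.10 on the log2 scale (SE, adjusted p = 0.0076, limma). MRPL19 had 14.96, 14.8 and 15.2 against 7.74, 9.83 and 6.44 FPKM and fell by 0.85 ± 0.15 on the log2 scale (SE, adjusted p = 0.011, limma). MRPL1 had a log2 fold change of −0.52 ± 0.13 (SE, adjusted p = 0.034, limma), and its call was lost with the replicate block, at 0.062, and without any 1 of empty-vector libraries 1, 2 and 3 or pre-miR-203a library 1, at 0.096 to 0.110 (limma). It was also lost with no filter (0.058), quantile normalisation (0.059) and limma-voom (0.053), each an adjusted p.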

How the data were processed

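RNA-seq values of 6 MCF10A libraries were used, 3 with the empty vector and 3 with pre-miR-203a, grouped by the sample titles. The submitters' processing notes name hg38, and list DESeq2 1.28.1 and featureCounts 2.0.0 beside MultiQC 1.6 and FastQC 0.11.5 as what the authors used. Aligner, annotation release and use of strand are not given in the sources used here. FPKM values for 18999 features were deposited by the authors. Per the file headers, a second deposited table holds TPM values and the authors' own comparison, with a baseMean signal, log2 fold changes, p-values and adjusted p-values. Those fold changes were deposited as control over pre-miR-203a and are printed here with reversed sign.

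Limma 3.58.1 in R 4.3.3 (trend and robust variances) was fitted to log2(FPKM + 1) with a term for group alone, over the 11271 features that reached 1 FPKM in 3 or more libraries, with Benjamini-Hochberg adjustment over all of them. Fold changes on this scale understate changes of low genes. Reads recovered from FPKM and baseMean were whole within 0.01 for 100% of values and gave the depths. GENCODE 29 gave coding sequences, 3′ UTRs, coordinates and GC content, and RefSeq (GRCh38.p14) gave start sites and the microRNA. The fit was tested on simulated data. Python 3.11.15, pandas 2.3.3 and matplotlib 3.10.9 were used.

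The members and the lists were chosen with earlier results of these data known. Named genes were all called members, the 5 highest and 5 lowest members by mean FPKM, the 4 largest differences not called, paralogs and their parents, the stalk genes, RPL5, RPL11, RPS6, RPS4X, FAU and RPS27A, up to 4 called genes per list (2 genes by smallest p in lists without a call), and MIR203A. RPL3, RPL23A, RPL12, RPL37, RPS19, RPS3A, RPS15 and the genes called without both libraries 3 were named after their values were seen. Some genes that the rule would name are not reported here. Same-numbered libraries deviated from their group means together, with correlations of 0.433, 0.269 and 0.321. Differently numbered libraries of the 2 groups had correlations of −0.417 to 0.221. The replicate number was therefore taken as a possible pairing. The main fit left it out, so its p-values do not use the pairing, and the fit with it as a block was an alternative. The other alternatives were the pseudocount, filters, TPM, 3 scalings, limma-voom, each library left out, both libraries 3 left out and correction for GC content, the last 2 chosen after seeing the data.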

Additional observations from a re-analysis of the deposited data

How the results depend on the processing

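RPL39L and RPL26L1 were called lower in all 18 alternatives to the reported fit, with log2 fold changes of −1.42 to −1.07 and −1.20 to −0.84 and adjusted p of 0.0028 to 0.0228 and 0.0042 to 0.0307 (limma). RPL22L1 was called in 3 of the 18. Over 43 named genes and 18 alternatives, 716 of 768 values kept their call, 38 lost it and 13 gained it, and 64 changed sign. Of the sign changes, 1 involved a call, RPL26, which turned from −0.03 to 0.32 without both libraries numbered 3.

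Without both libraries numbered 3, the count of called features went from 1778 to 3190, ribosomal protein genes called higher from 0 to 1 and lower from 2 to 9, their median log2 fold change from 0.07 to −0.089, and list genes called higher from 3 to 5 and lower from 9 to 49. Leaving out 1 library at a time gave 745 to 2257 called features, 0 to 3 list genes called higher and 4 to 31 called lower, and a median over the ribosomal protein genes of −0.033 to 0.12. The lowest count of called features came without empty-vector library 1 and the highest without pre-miR-203a library 3. List genes called lower numbered 4 without any 1 of the empty-vector libraries or pre-miR-203a library 1 and 31 without pre-miR-203a library 3, which also gave the median of −0.033. List genes called lower numbered 4 with no filter, 5 after quantile normalisation and 15 after GC correction, and those called higher numbered 0 on TPM, 5 in limma-voom and 6 after GC correction. With the replicate number as a block 1970 features were called, 0 ribosomal protein genes higher and 2 lower, and the block changed no call among the 82 genes. With GC correction and the block together, 3901 features were called, with 13 list genes higher and 35 lower. The cause of these differences was not tested. Of the tests on recovered reads, limma-voom was run and the negative binomial tests planned beside it were not, since the deposited values are FPKM.

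Having 3 libraries per group, the shallowest with 7632063 reads, limited what could be seen. The interval of a typical ribosomal protein gene reached 0.37 to either side on the log2 scale, so smaller shifts were not detectable in such a gene. That interval is not adjusted for the number of features tested, so larger shifts could be missed as well. RPL22L1 at −0.45 was not called, with an adjusted p of 0.061 (limma). The lowest gene, RPS10, had 14 reads in the shallowest library.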
